A study of Homo sapiens with 12 samples.

Results

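A set of 43 genes of homologous recombination, the Fanconi anemia pathway and the checkpoint that watches over them was followed in A375, a human melanoma cell line, with and without knockdown of the m6A demethylase ALKBH5. The genes were taken by their symbols from an expression table of 29696 genes, where all 43 were found, and every peak carrying one of these symbols was taken from the m6A peak lists. A375 cells labelled wild type received a control lentivirus, named shCtrl, and cells labelled ALKBH5 knockdown received a lentivirus with an shRNA against ALKBH5, named shALKBH5. Both groups grew in the same serum-containing medium, and the labels give no treatment. The study's methods add polybrene at infection and puromycin selection after it, place the harvest of RNA soon after infection, and do not name the hairpin that was sequenced. Each group had 3 input libraries of poly(A) RNA, the source of the expression values, and 3 libraries of RNA precipitated with an antibody against m6A. Nothing in the labels says that the 3 libraries of a group came from separate cultures, so the p-values below measure the spread between these libraries, which may be technical.

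Homologous recombination mends a broken chromosome by copying the intact sister. The broken ends are cut back to single strands, a protein filament is built on them with the help of BRCA1, BARD1, PALB2 and BRCA2, the filament invades the sister with RAD54 as its motor, and the joined molecules are then taken apart by a dissolving helicase complex or by nucleases. The Fanconi pathway acts before this at DNA crosslinks that block replication forks: a core ubiquitin ligase with its conjugating enzyme UBE2T marks the FANCD2 and FANCI pair, and USP1 removes the mark. The kinases ATM and ATR sense breaks and stalled forks and act through CHEK2 and CHEK1. Many of these genes are transcribed mainly in cells that are preparing for or passing through DNA replication. In bulk libraries such as these, fewer cells in such a phase and less RNA per cell cannot be told apart.

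ALKBH5 itself was at 3.39, 3.92 and 3.12 FPKM in the shALKBH5 libraries and at 19.3, 17.8 and 17.6 FPKM in the shCtrl libraries. The values were deposited as FPKM, which are fragments scaled by transcript length and by library size, and no counts were used, which leaves the sequencing depth unknown, and the number of libraries limits the precision. Over the tested genes, r was 0.981 to 0.984 between libraries of one group and 0.929 to 0.934 across groups. Of 4 tested melanocyte markers, 3 were higher in shALKBH5 cells. The S100 protein gene S100B was at means of 32.9 FPKM in shCtrl and 82.1 FPKM in shALKBH5 cells, S100A1 at 1.86 and 4.43 FPKM, and the transcription factor MITF at 0.777 and 1.26 FPKM. The MITF values of the groups overlapped, and its adjusted p was 0.0475 from limma. The factor SOX10, at 184.2 and 180.6 FPKM, was not called. The pigment genes PMEL, TYR, DCT and TYRP1 were below the filter, with no value above 0.690 FPKM, and TYR was at 0 in all shCtrl libraries. No listed leukocyte or endothelial marker reached a mean of 0.5 FPKM.

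Expression of the repair genes was lower on the whole in shALKBH5 cells. The 43 genes summed to 110.4 to 117.2 FPKM in the shCtrl libraries and to 66.5 to 69.4 FPKM in the shALKBH5 libraries, and the sums did not overlap. The genes were tested with limma on log2(FPKM + 0.1) together with all other genes whose mean over the 6 libraries was at least 0.5 FPKM, with Benjamini-Hochberg adjustment over the 12985 genes tested. A fold change on this scale understates the change of a gene with low values. At an adjusted p under 0.05, 23 of the 34 members that passed the filter were lower in shALKBH5 cells, where 26.2% of all tested genes were. Only PALB2 and MUS81 were higher, where 34.7% of all tested genes were. After rescaling of the libraries by their median ratio, 30.0% of all tested genes were lower and 29.2% higher, and 25 members were lower and 1 higher. The other 9 tested members were RAD51C, FANCF, NBN, RBBP8, RMI1, ATM, ATRIP, TOPBP1 and CHEK2. The median log2 fold change was -0.76 over the 34 members and 0.09 over all tested genes. Among the 10122 tested genes within the range of mean expression of the 34 members, 25.3% were lower and 32.4% were higher.

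The filter left out BARD1, BRCA2, RAD51B, FANCM, BRIP1, RAD50, BLM, GEN1 and ATR. BRCA1, RAD51AP1, RAD54B, C19orf57 and FANCB passed it through their shCtrl values and had a mean under it in the shALKBH5 libraries, so that their passing was tied to their difference. With no filter all 43 members entered the fit, and 25 were lower, 2 were higher and 16 were not called. Of all 29696 genes in that fit, 12.2% were lower and 15.6% higher. The median log2 fold change of the 43 members was -0.64 there. The groups did not overlap in 35 members. The shALKBH5 values were all below the shCtrl values in 31 members, 24 of the 34 tested and 7 of the 9 untested. Of all tested genes, 29% showed this, a share to set beside the 24 of 34 only. No such share was computed for genes below the filter. The shALKBH5 values were all above in 4 members, PALB2, MUS81, ATM and ATRIP, where 38% of all tested genes showed this. The values overlapped in RAD51C, FANCF, FANCM, NBN, RBBP8, RMI1, ATR and CHEK2. For a single gene, an exact two-sided permutation test of 3 libraries against 3 cannot give a p below 0.1, and it gave 0.1 for each of the 35.

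**Figure D1:**
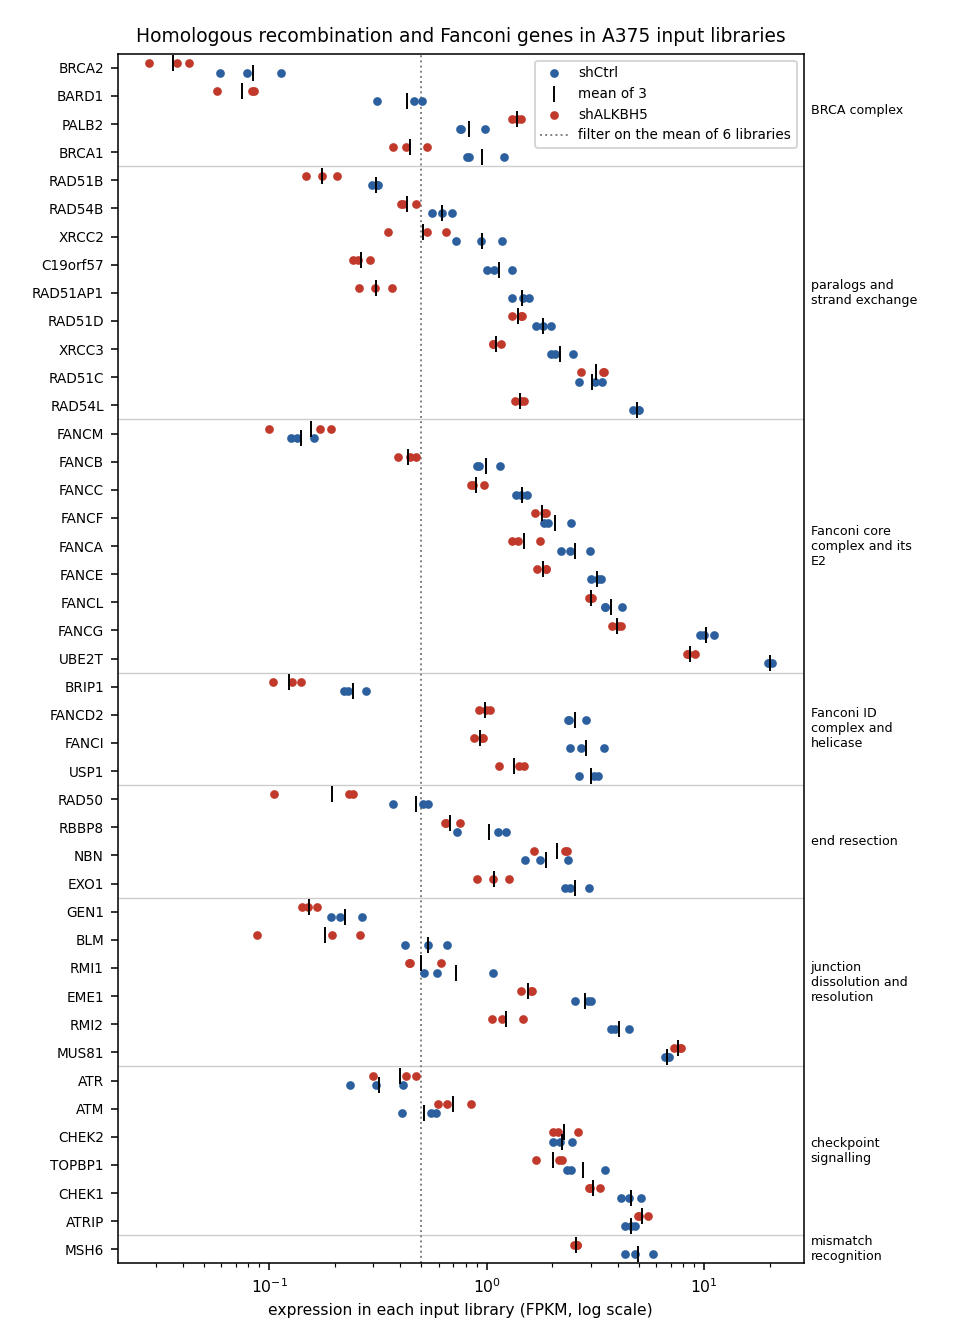
Expression of the 43 members in each of the 6 input libraries, in FPKM on a log axis, ordered by role and by the shCtrl mean. Blue points are the 3 shCtrl libraries, red points the 3 shALKBH5 libraries, black ticks the means, and the dotted line the filter of 0.5 FPKM on the mean of all 6. Red lies wholly left of blue in 31 members and wholly right in PALB2, MUS81, ATM and ATRIP.

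The members were mostly genes of low expression. The mean in shCtrl cells ran from 0.0838 FPKM for BRCA2 to 20.03 FPKM for UBE2T, with a median of 1.87 FPKM, and 16 of the 43 were below 1 FPKM. The median over members of the mean in shALKBH5 cells was 1.08 FPKM. Of the tested members, 12 had a mean in shALKBH5 cells of no more than 50% of that in shCtrl cells. Among these were BRCA1, RAD51AP1, C19orf57 and FANCB, which passed the filter through their shCtrl values. The share of all tested genes with such a ratio was not computed, so the count has no background.

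Proliferation markers moved with the members. All 25 tested genes of a list of 26 such markers were lower in shALKBH5 cells, with a median log2 fold change of -1.69, and the 26 genes summed to 813.2 to 856.4 FPKM in the shCtrl libraries and 274.9 to 283.0 FPKM in the shALKBH5 libraries. FOXM1, a transcription factor of dividing cells, had the lowest log2 fold change of the list at -2.23, and MCM3, a subunit of the replicative helicase, the highest at -0.65. MKI67, the gene of the Ki-67 antigen, was at 10.29, 12.91 and 9.06 FPKM in the shCtrl libraries and 3.18, 2.57 and 2.87 FPKM in the shALKBH5 libraries. PCNA, the sliding clamp of replication, was at 58.5, 65.5 and 65.3 FPKM and at 36.0, 38.4 and 37.4 FPKM. None of the 26 markers was at 0 in all libraries, and their part in the lower expression of the repair genes was not tested.

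Because many genes of DNA repair carry E2F sites near their start, the promoters of the members were searched for the letters of 3 textbook elements of cell cycle genes. RefSeq windows of 300 bases, 250 before and 50 after the start, on GRCh38.p14 were found for 39 of the 43 members, with C19orf57 under its newer symbol BRME1, and not for FANCI, NBN, RAD54B and RMI2. One window was used for each gene, the first one listed. An E2F match was TTTCCCGC, TTTCGCGC, TTTGCCGC or TTTGGCGC on either strand. Of the 39 windows, 9 (23.1%) held one, against 3.33% of the 27305 windows of all genes and 5.55% of the 9354 tested genes with a window. The 9 genes were XRCC2, C19orf57, FANCA, FANCC, FANCD2, EXO1, GEN1, TOPBP1 and MSH6. A match was present in 7 of 20 members (35%) that were called lower, in 2 of 19 others (10.5%), and in 6.41% of all tested genes that were called lower. The 19 others include the 9 members below the expression filter, which were not tested. GEN1, with a match, is one of them, and its shALKBH5 values were all below its shCtrl values.

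The matches follow for 6 members that were called lower and for TOPBP1, which was not, since they show how close to the start most of them lay. Each line gives the strand on which the gene is read, 5′ to 3′, in lower case with the E2F match in capitals. In FANCA and FANCC bases on both sides of the match are given, and in the other genes the line ends with the match.
FANCA, chr16:89816786-89816845, minus strand: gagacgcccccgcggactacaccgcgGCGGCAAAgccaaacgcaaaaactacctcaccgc
FANCC, chr9:95317848-95317907, minus strand: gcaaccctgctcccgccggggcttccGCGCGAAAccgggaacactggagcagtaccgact
FANCD2, chr3:10026409-10026442, plus strand: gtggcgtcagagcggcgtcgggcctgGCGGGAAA
EXO1, chr1:241848182-241848215, plus strand: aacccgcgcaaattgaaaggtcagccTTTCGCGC
MSH6, chr2:47783122-47783155, plus strand: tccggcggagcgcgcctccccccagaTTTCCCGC
XRCC2, chr7:152676113-152676146, minus strand: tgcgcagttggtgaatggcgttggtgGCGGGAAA
TOPBP1, chr3:133661941-133661974, minus strand: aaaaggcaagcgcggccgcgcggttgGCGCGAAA

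The match began 2 bases before the start in FANCD2 and 7 before it in TOPBP1, and 4, 5 and 22 bases after it in MSH6, EXO1 and XRCC2, counting the first transcribed base as 1. FANCA and FANCC matched 172 bases before the start, and FANCC had a further match 46 bases before it. The shared letters of FANCD2 and XRCC2, GCGGGAAA, are those of MSH6 on the opposite strand. The starts are those of RefSeq, and the transcripts that A375 cells use were not determined here.

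The other elements had shares nearer to those of all genes. A CHR element, TTTGAA or TTCGAA on either strand, was matched in 4 of the 39 windows (10.3%), against 16.6% of all windows and 10.5% of the tested genes. CCAAT on either strand was matched in 18 of 39 (46.2%), against 35.7% and 37.5%. UBE2T, the most highly expressed member, held no E2F match but a CHR match and a pair of CCAAT matches. Its CHR match began 153 bases before the start and is in capitals in the following line.
UBE2T, chr1:202342058-202342115, minus strand: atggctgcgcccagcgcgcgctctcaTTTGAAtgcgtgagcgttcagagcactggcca
Matches of different elements were counted separately even where they overlapped, and FANCC alone among the members held both an E2F and a CHR match. These are matches of letters, not measured sites.

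In the BRCA complex the members did not move together. BRCA1, the ubiquitin ligase subunit that organises repair at broken ends, was at 0.830, 1.20 and 0.812 FPKM in the shCtrl libraries and 0.531, 0.369 and 0.425 FPKM in the shALKBH5 libraries. Its values did not overlap, its mean was 2.15-fold lower in shALKBH5 cells, and its log2 fold change was -0.94 (SE 0.203, adjusted p = 0.00519 from limma). PALB2, which ties BRCA1 to BRCA2, went the other way, from 0.752, 0.981 and 0.762 FPKM in shCtrl to 1.44, 1.31 and 1.38 FPKM in shALKBH5 libraries. Its mean was 1.65-fold higher, with a log2 fold change of 0.67 (SE 0.132, adjusted p = 0.00344 from limma), the largest rise among the members.

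BARD1, the partner that BRCA1 needs for its ligase activity, and BRCA2, which acts in building the filament, were both below the filter. BARD1 was at 0.313, 0.465 and 0.505 FPKM in the shCtrl libraries and at 0.0578, 0.0828 and 0.0851 FPKM in the shALKBH5 libraries. The ratio of its means, 5.68, was the highest of all members, and the unfiltered fit gave a log2 fold change of -1.57 (SE 0.215, adjusted p = 0.00314 from limma). BRCA2 was at 0.0788, 0.113 and 0.0592 FPKM and at 0.0429, 0.0377 and 0.0279 FPKM. These BRCA2 values did not overlap either, but all except the highest, 0.113 FPKM, were smaller than the 0.1 added before the log, and the unfiltered fit gave an adjusted p of 0.0902 from limma.

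Among the paralog and accessory factors of strand exchange, 7 of the 8 tested members were lower in shALKBH5 cells, where 26.2% of all tested genes were, and the median log2 fold change was -0.85. RAD51AP1, which stimulates strand invasion, was at 1.46, 1.57 and 1.30 FPKM in the shCtrl libraries and 0.308, 0.258 and 0.366 FPKM in the shALKBH5 libraries. It had the lowest log2 fold change of all tested members, -1.92 (SE 0.160, adjusted p = 4.44e-05 from limma), and its mean was 4.65-fold lower. RAD54L, the motor protein of strand invasion, was at 5.01, 4.68 and 4.97 FPKM and at 1.43, 1.35 and 1.48 FPKM. The RAD54L groups were far apart beside their spread, with a log2 fold change of -1.71 (SE 0.0730, adjusted p = 2.04e-06 from limma).

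C19orf57, also called BRME1, is a partner of BRCA2 known from meiosis. It was at 1.31, 1.01 and 1.08 FPKM in the shCtrl libraries and 0.291, 0.242 and 0.255 FPKM in the shALKBH5 libraries. Its log2 fold change was -1.76 (SE 0.168, adjusted p = 8.68e-05 from limma).

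The paralogs, which stabilise the filament, changed by less than these factors. XRCC3 had means of 2.17 ± 0.278 FPKM (SD, n = 3) in shCtrl and 1.10 ± 0.0541 FPKM (SD, n = 3) in shALKBH5 cells, a log2 fold change of -0.91. XRCC2 had -0.79 and RAD51D -0.36, and RAD54B, a second RAD54 motor, had -0.45. These calls were less secure, since XRCC2 lost its call in 6 of 13 alternatives that tested it, RAD51D in 4 of 14 and RAD54B in 9 of 12, while all kept their sign. RAD51B, below the filter, was at 0.296 to 0.315 FPKM in shCtrl and 0.148 to 0.204 FPKM in shALKBH5 libraries, without overlap, and the unfiltered fit gave an adjusted p of 0.0534 from limma. RAD51C, the paralog shared by both paralog complexes, was the exception. Its values of 2.66, 3.38 and 3.15 FPKM in shCtrl and 3.44, 3.42 and 2.72 FPKM in shALKBH5 libraries overlapped, with a log2 fold change of 0.06 (SE 0.124, adjusted p = 0.712 from limma).

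**Figure D2:**
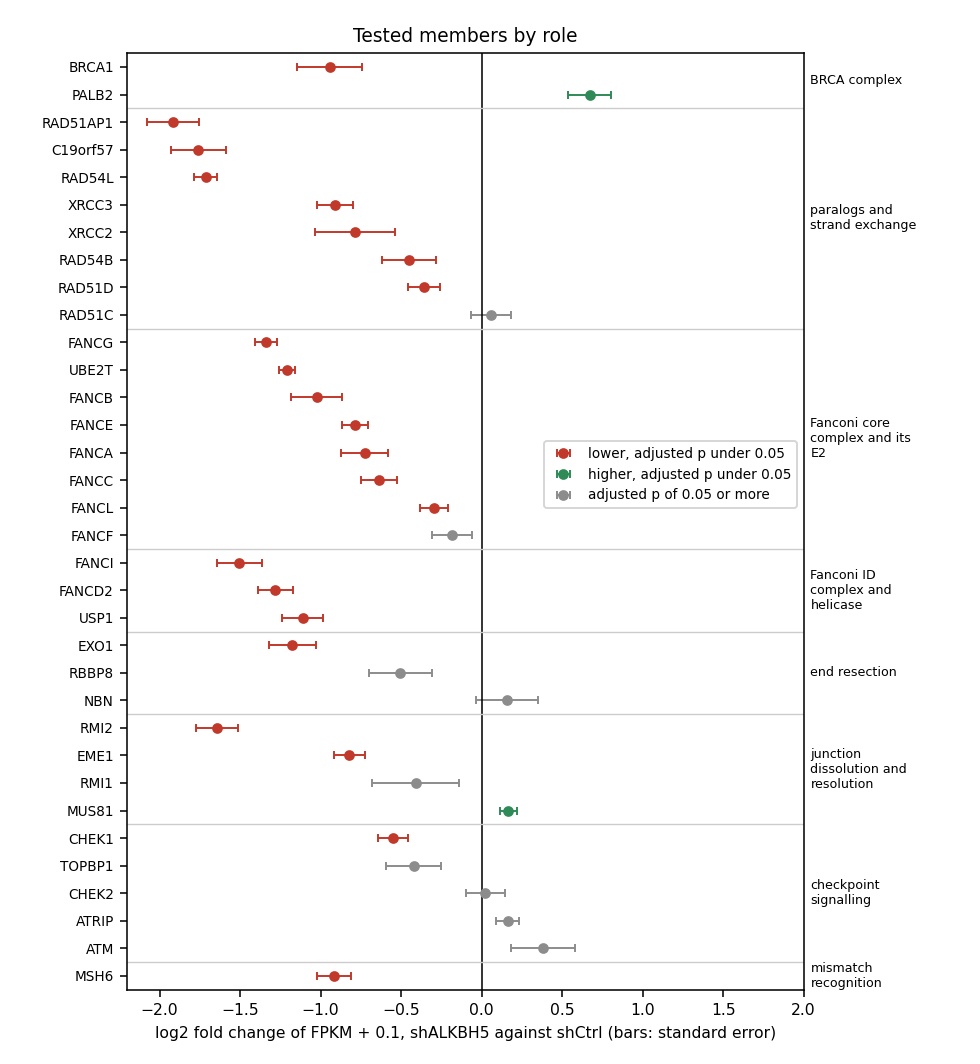
Log2 fold change of FPKM + 0.1 in shALKBH5 against shCtrl input libraries for the 34 tested members by role, with standard errors as bars. Red marks the 23 members called lower, green the 2 called higher (PALB2 at 0.67 and MUS81 at 0.17) and grey the 9 not called, 4 of which are checkpoint genes.

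The Fanconi core complex is the ubiquitin ligase of the pathway, with FANCL as its catalytic subunit and UBE2T as its conjugating enzyme. Of 8 tested members, 7 were lower in shALKBH5 cells, where 26.2% of all tested genes were, and the median log2 fold change was -0.76. UBE2T was at 19.9, 19.6 and 20.6 FPKM in the shCtrl libraries and 8.41, 9.08 and 8.35 FPKM in the shALKBH5 libraries. This difference was many times the spread within groups, with a log2 fold change of -1.21 (SE 0.051, adjusted p = 1.96e-06 from limma). FANCG, a scaffold subunit next to FANCA, was at 11.04, 9.61 and 9.99 FPKM and at 4.00, 4.12 and 3.78 FPKM, and its log2 fold change of -1.34 (SE 0.0695, adjusted p = 4.90e-06 from limma) was the lowest in the complex.

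Of the other core subunits, FANCB, which supports FANCL, had a log2 fold change of -1.03, FANCE and FANCC, which bind the substrate side, had -0.79 and -0.64, and FANCA, the partner of FANCG, had -0.73. FANCL had -0.29 with means of 3.72 ± 0.398 FPKM (SD, n = 3) in shCtrl and 3.01 ± 0.0506 FPKM (SD, n = 3) in shALKBH5 cells, and lost its call in 3 of 14 alternatives. FANCF, an adaptor of the complex, was at 1.91, 1.83 and 2.45 FPKM and at 1.83, 1.88 and 1.67 FPKM. The FANCF values overlapped and its log2 fold change was -0.19 (SE 0.124, adjusted p = 0.230 from limma). FANCM, the DNA translocase that anchors the complex, was below the filter at 0.160, 0.134 and 0.125 FPKM in shCtrl and 0.171, 0.1002 and 0.193 FPKM in shALKBH5 libraries, which overlapped.

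The substrates of the core complex, FANCD2 and FANCI, and the enzyme that removes their ubiquitin, USP1, were all lower. FANCD2 was at 2.37, 2.87 and 2.38 FPKM in the shCtrl libraries and 1.04, 0.989 and 0.920 FPKM in the shALKBH5 libraries, with a log2 fold change of -1.28 (SE 0.110, adjusted p = 5.02e-05 from limma). FANCI was at 2.71, 3.45 and 2.40 FPKM and at 0.965, 0.949 and 0.876 FPKM, with a log2 fold change of -1.50 (SE 0.138, adjusted p = 7.24e-05 from limma). USP1 was at 2.66, 3.23 and 3.13 FPKM and at 1.41, 1.13 and 1.48 FPKM, with a log2 fold change of -1.11 (SE 0.125, adjusted p = 0.000199 from limma). In all of these genes each shALKBH5 value was below each shCtrl value, and the shALKBH5 means were 2.24-fold to 3.07-fold lower. BRIP1, the helicase also named FANCJ, was below the filter, at 0.221 to 0.279 FPKM and 0.104 to 0.139 FPKM, and the unfiltered fit gave a log2 fold change of -0.62 (adjusted p = 0.0432 from limma).

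The genes of end resection differed among themselves. EXO1, the exonuclease of long-range resection, was at 2.30, 2.95 and 2.43 FPKM in the shCtrl libraries and 1.27, 1.07 and 0.899 FPKM in the shALKBH5 libraries, with a log2 fold change of -1.18 (SE 0.147, adjusted p = 0.000342 from limma). RBBP8, the gene of CtIP, which starts resection, was at 1.12, 1.23 and 0.732 FPKM and at 0.648, 0.643 and 0.751 FPKM. One shCtrl value of RBBP8 lay within the shALKBH5 range, and its log2 fold change of -0.50 (SE 0.197) had an adjusted p of 0.0584 from limma. Over 13 alternatives its adjusted p ran from 0.00827, without that library, shCtrl replicate 3, to 0.268, and it was called in 2 of them. NBN, a subunit of the MRE11 complex, was at 1.76, 2.36 and 1.51 FPKM and at 2.29, 1.64 and 2.35 FPKM, overlapping, with a log2 fold change of 0.16 (SE 0.192, adjusted p = 0.504 from limma). RAD50, another subunit of that complex, was below the filter, at 0.369 to 0.536 FPKM in shCtrl and 0.105 to 0.241 FPKM in shALKBH5 libraries, and the unfiltered fit gave -0.99 (adjusted p = 0.0440 from limma).

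At the step where joined molecules are separated, each member of the dissolution complex had a lower mean in shALKBH5 cells, though RMI1 was not called. Differences between the members were not tested. RMI2, a subunit of the BLM complex, was at 3.74, 3.88 and 4.49 FPKM in the shCtrl libraries and 1.17, 1.47 and 1.05 FPKM in the shALKBH5 libraries, with a log2 fold change of -1.64 (SE 0.132, adjusted p = 3.76e-05 from limma). RMI1, its partner, was at 0.513, 1.06 and 0.591 FPKM and at 0.619, 0.439 and 0.443 FPKM, which overlapped, with a log2 fold change of -0.41 (SE 0.272, adjusted p = 0.228 from limma). BLM, the helicase of the complex, was below the filter, at 0.539, 0.655 and 0.419 FPKM and at 0.262, 0.0876 and 0.194 FPKM. The BLM groups did not overlap, and the unfiltered fit gave -1.22 (SE 0.304, adjusted p = 0.0313 from limma).

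EME1 and MUS81 form one nuclease, yet their genes were called in opposite directions. EME1 had means of 2.82 ± 0.243 FPKM (SD, n = 3) in shCtrl and 1.55 ± 0.0999 FPKM (SD, n = 3) in shALKBH5 cells, a log2 fold change of -0.82 (SE 0.0960, adjusted p = 0.000242 from limma). MUS81 was at 6.62, 6.91 and 6.79 FPKM in the shCtrl libraries and 7.81, 7.27 and 7.75 FPKM in the shALKBH5 libraries, a log2 fold change of 0.17 (SE 0.0534, adjusted p = 0.0295 from limma). The MUS81 difference was small, and its call was lost in 6 of 14 alternatives, rescaling of the libraries by their median ratio among them. GEN1, the resolvase that cuts junctions symmetrically, was below the filter, at 0.191 to 0.266 FPKM and 0.142 to 0.166 FPKM, which did not overlap, but the unfiltered fit gave an adjusted p of 0.218 from limma.

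Of 5 tested checkpoint genes 1 was lower (20%), where 26.2% of all tested genes were, and their median log2 fold change was 0.02, against 0.09 over all tested genes. CHEK1, the effector kinase of ATR, was at 4.15, 5.10 and 4.52 FPKM in the shCtrl libraries and 3.31, 2.97 and 2.99 FPKM in the shALKBH5 libraries, with a log2 fold change of -0.55 (SE 0.0916, adjusted p = 0.00145 from limma). CHEK2, the effector kinase of ATM, was at 2.01, 2.16 and 2.45 FPKM and at 2.13, 2.62 and 2.01 FPKM, with a log2 fold change of 0.02 (SE 0.123, adjusted p = 0.877 from limma). The CHEK2 values overlapped almost wholly.

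The upstream kinases and their partners were not called. ATM was at 0.552, 0.584 and 0.408 FPKM in the shCtrl libraries and 0.850, 0.599 and 0.655 FPKM in the shALKBH5 libraries, which did not overlap, with a log2 fold change of 0.38 (SE 0.196, adjusted p = 0.131 from limma). ATR, below the filter, was at 0.310, 0.413 and 0.234 FPKM and at 0.472, 0.300 and 0.424 FPKM, which overlapped. ATRIP, the partner that carries ATR to single strands, was at 4.63, 4.34 and 4.83 FPKM and at 5.00, 5.54 and 4.94 FPKM, with an adjusted p of 0.0860 from limma. TOPBP1, the activator of ATR, was at 2.45, 3.49 and 2.34 FPKM and at 2.23, 1.68 and 2.14 FPKM. Its groups did not overlap, but the shCtrl values were widely spread, and the log2 fold change of -0.42 (SE 0.172) had an adjusted p of 0.0672 from limma. After rescaling by the median ratio TOPBP1 was called lower at an adjusted p of 0.0279, the only call among 14 alternatives, in which the adjusted p reached 0.301.

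MSH6, a subunit of mismatch recognition, was the last member. It was at 4.33, 5.78 and 4.83 FPKM in the shCtrl libraries and 2.59, 2.60 and 2.53 FPKM in the shALKBH5 libraries, with a log2 fold change of -0.92 (SE 0.106, adjusted p = 0.000228 from limma). Its groups were separated by more than the spread of either.

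shCtrl replicate 2 stood out among the members. It was the highest of its group in 21 of the 34 tested members (61.8%), against 40.7% of all tested genes, and shALKBH5 replicate 1 was the lowest of its group in 1 of 34 (2.94%), against 28.7%. Without shCtrl replicate 2, 21 of 33 tested members were lower, where 24.5% of all tested genes were. Leaving out both libraries numbered 2 was an alternative added once the data had been seen. There 19 of 34 were lower, where 22.3% of all tested genes were, and the median log2 fold change of the members was -0.66. In that fit NBN was called higher, at a log2 fold change of 0.49, its only call among 14 alternatives.

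By their positions 14 members overlap a gene of the opposite strand whose mean reached 0.5 FPKM, and in 13 of them, all but FANCL, that gene had a higher mean than the member. The libraries mark the strand, but the counting is not stated to use it. MUS81 overlaps CFL1, at a mean of 327.6 FPKM over the 6 libraries, EME1 overlaps LRRC59, at 60.2 FPKM, and RAD54L overlaps LRRC41, at 14.7 FPKM. FANCI overlaps POLG, at 6.001 FPKM, XRCC3 overlaps KLC1, at 5.39 FPKM, and C19orf57 shares 252 bp with CC2D1A, at 9.94 FPKM. MSH6 overlaps FBXO11, at 4.77 FPKM, NBN overlaps DECR1, at 4.22 FPKM, FANCA overlaps ZNF276, at 2.74 FPKM, CHEK2 overlaps HSCB, at 3.12 FPKM, and RAD51B overlaps AL121820, at 1.55 FPKM. GEN1, at a mean of 0.188 FPKM, overlaps SMC6, at 0.555 FPKM, over 35089 bp. BRCA1, at 0.695 FPKM, overlaps NBR2, at 0.889 FPKM, and on its own strand AC060780, at 1.02 FPKM. CHEK2 has a related entry, CHEK2P2, at 0.968 FPKM, and the values of these members are uncertain to the extent that reads were shared.

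The neighbouring repair pathways were read in the same fit, in which 26.2% of all tested genes were lower and 34.7% higher. A list of 58 other genes of homologous recombination and the Fanconi pathway had 51 tested, of which 23 were lower and 10 higher, with a median log2 fold change of -0.21. H2AX, the histone variant phosphorylated at breaks, had the highest log2 fold change of these at 1.22. Of 17 tested other checkpoint genes, 11 were lower and the other 6 were not called, with a median of -0.57 and the lowest value, -2.46, for CDC25C, a phosphatase of mitotic entry.

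In the other repair pathways calls went both ways, as they did over all tested genes (26.2% lower and 34.7% higher). Of 18 tested genes of non-homologous and alternative end joining, 9 were lower and 4 higher, with a median of -0.21, from PARP3 at -1.38 to POLM, a gap-filling polymerase, at 0.75. Of 23 tested genes of nucleotide excision repair, 5 were lower and 7 higher, with a median of 0.12, from LIG1, the replicative ligase, at -1.69 to UVSSA at 0.91. Of 17 tested genes of base excision repair, 6 were lower and 5 higher, with a median of -0.10, from the glycosylase NEIL3 at -1.53 to APTX at 0.66. The mismatch repair genes beside MSH6 had 2 lower and 1 higher of 5 tested, with the highest value, 0.35, for PMS2. Of 10 housekeeping genes 5 were lower and 2 higher, with a median of -0.15, from ACTB at -0.82 to TBP at 0.56. Differences between lists were not tested.

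**Figure D3:**
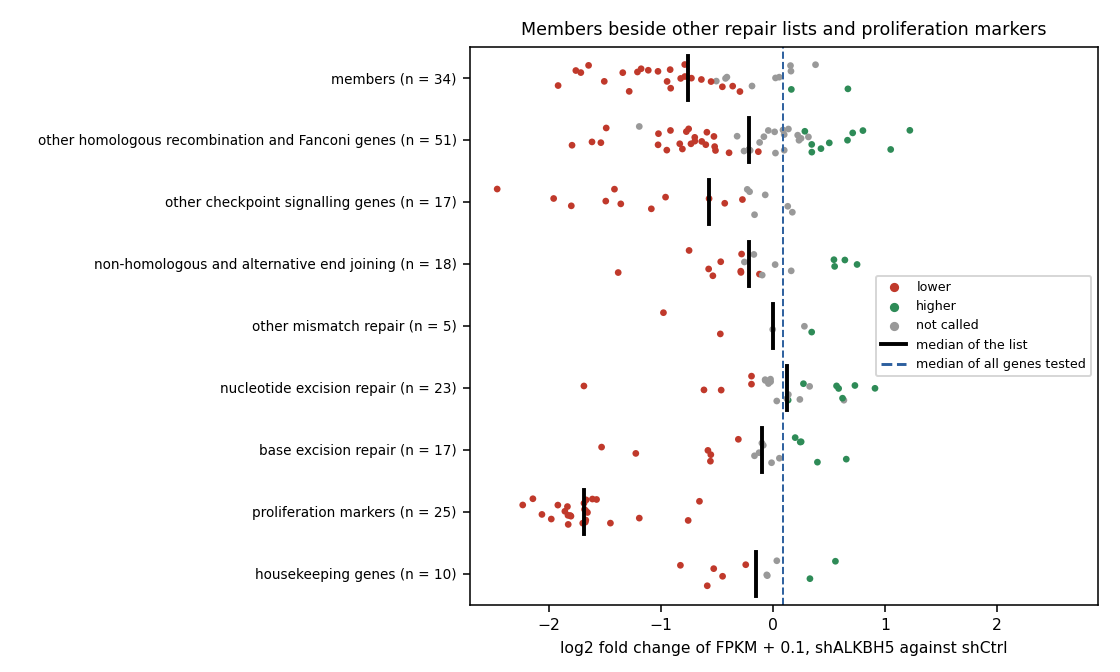
Log2 fold change of FPKM + 0.1 in shALKBH5 against shCtrl input libraries for every tested gene of 9 lists, with the number of genes beside each name. Each point is a gene, colored by its call, black bars are list medians and the dashed line is the median of all tested genes. The median of the 34 members is -0.76, between that of the proliferation markers, -1.69, and those of the other repair lists, which run from -0.21 to 0.12 apart from the checkpoint genes at -0.57.

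The m6A marks of the members were read from the peak lists. Here a peak is a stretch of transcript enriched in the antibody libraries over the input, and each group has 1 list with no values per library, so the lists carry no replicate check and were not compared by a test. Intervals of shares are 95% Wilson intervals and cover counting error only. The shALKBH5 list held 125 peaks in 40 members and the shCtrl list 143 peaks in 42 members, whereas over all genes the shALKBH5 list was the longer, with 46039 peaks against 44304. Of all tested genes, 86% had a peak in the shALKBH5 list and 85.5% in the shCtrl list. In 17 members (39.5%) the shALKBH5 list had fewer peaks, in 9 (20.9%) it had more, and in 17 the number was equal. Of all tested genes, 22.9% had fewer and 27.2% had more. The member counts include the 9 members below the expression filter, so these shares do not have the same base. The members below the filter had 32 peaks in the shALKBH5 list and 45 in the shCtrl list. Shares for the tested members alone were not computed. A list can hold overlapping peaks of one gene, some with ends only a few bases apart. Merging them within each list left 118 and 133 sites of the members and changed the numbers of RAD50, ATRIP and RAD54B only. Of the 23 members with lower expression, 20 had a peak in the shALKBH5 list and 22 in the shCtrl list, with 68 peaks in each. The 2 members called higher had 3 peaks in the shALKBH5 and 5 in the shCtrl list. The 9 tested members that were not called had 22 and 25.

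UBE2T, the most highly expressed member, had no peak in either list. FANCD2 and CHEK1 had 2 peaks each in the shCtrl list and none in the shALKBH5 list. The FANCD2 peaks lay at its first bases, with a fold enrichment of 1.68, and in its 3'UTR at chr3:10098879-10099298, with 6.38. Both CHEK1 peaks lay in the 5'UTR by the authors' annotation, and the stronger one, chr11:125625965-125626369, had a fold enrichment of 5.66. Fold enrichment is the ratio of antibody to input signal that the authors' peak caller gave. Of these 4 peaks, only the stronger one of CHEK1 met the stricter criteria, a fold not under 2 and an FDR not above 0.01. No member had peaks in the shALKBH5 list alone.

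**Figure D4:**
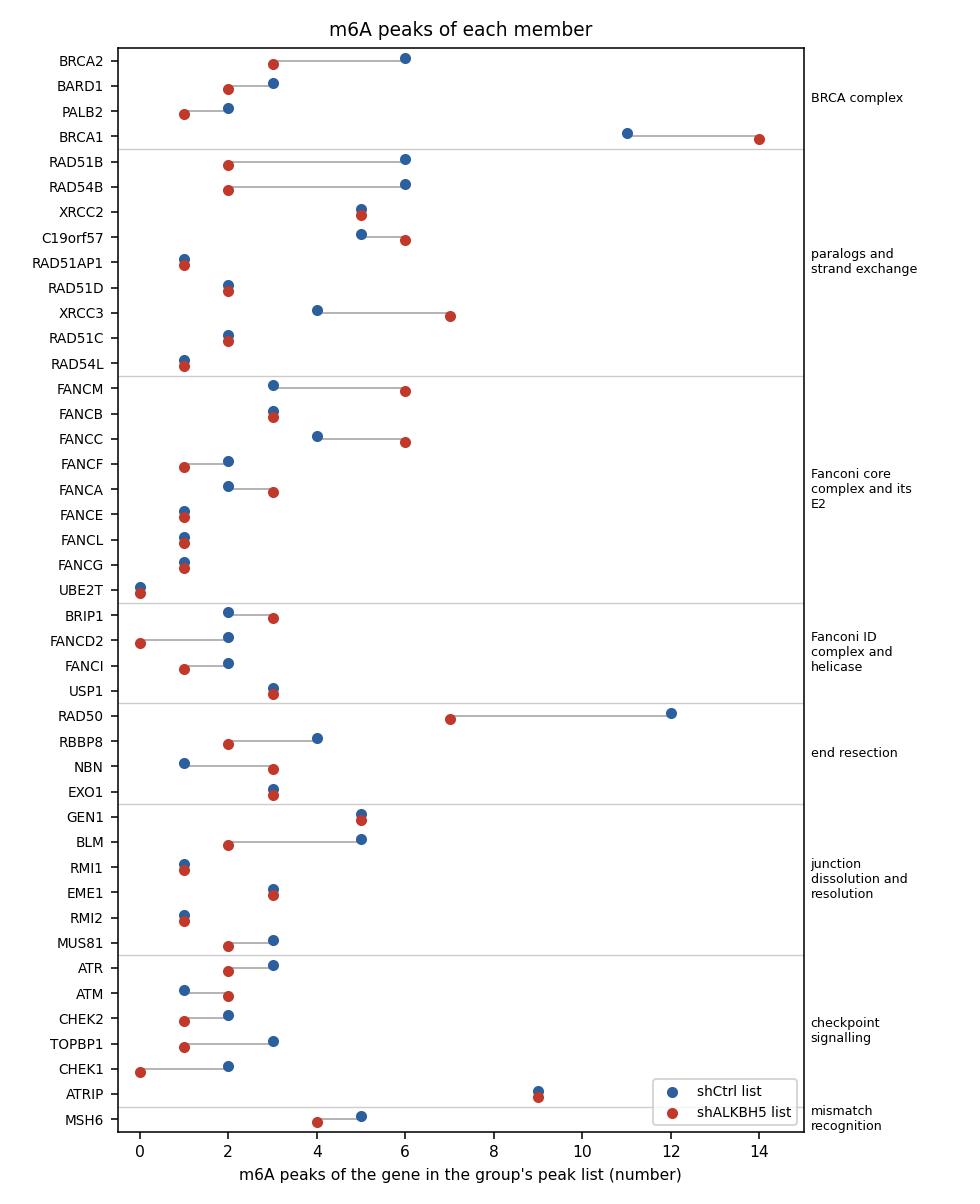
Number of m6A peaks of each of the 43 members in the shCtrl list (blue) and the shALKBH5 list (red), ordered by role. BRCA1 with 14 peaks has the most in the shALKBH5 list and RAD50 with 12, which merge to 6 sites, the most in the shCtrl list, while UBE2T is at 0 in both.

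BRCA1 had 14 peaks in the shALKBH5 list and 11 in the shCtrl list, none of which overlapped another of the same list. RAD50 had 7 and 12 listed peaks, which merged to 3 and 6 sites. The BRCA1 peaks need care, because 7 of the 14 and 6 of the 11 lay in a span that BRCA1 shares with another gene of the same strand, AC060780, whose mean expression of 1.02 FPKM was above that of BRCA1 at 0.695 FPKM. The highest fold enrichment of a member in the shALKBH5 list, 41.6 at chr17:43164150-43166506, lay in that span, and the partner of this peak in the shCtrl list had 8.30. ATRIP had 9 peaks in each list, which merged to 7 sites, and 4 of the 9 overlapped TREX1 on the same strand. TREX1 was at a mean of 0.255 FPKM. Both peaks of RAD54B in the shALKBH5 list and 5 of its 6 in the shCtrl list overlapped FSBP, at 0.290 FPKM, and 1 peak of FANCC in each list overlapped MT1P1, at 0.135 FPKM. All 7 and 12 peaks of RAD50 overlapped AC116366, at 0.00639 FPKM, all peaks of RAD51D overlapped AC004223, at 0.000371 FPKM, and 1 peak of FANCC in each list overlapped AL161729, at 0.0154 FPKM.

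In the shCtrl list the highest fold enrichment of a member was 37.0, in the 3'UTR of GEN1 at chr2:17783615-17784753, and the strongest peak that overlapped it in the shALKBH5 list had 25.7. RAD51C followed with 35.7 at chr17:58692991-58693888, where the shALKBH5 list had 7.20. GEN1 was at under 0.3 FPKM in every input library, and the error of its fold is not known.

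Of the member peaks, 80% (72.1 to 86.1%) of the shALKBH5 list shared at least 1 bp, on the same strand, with the shCtrl list, and 72.7% (64.9 to 79.4%) of the shCtrl list with the shALKBH5 list. For all peaks the shares were 78.1% and 81.3%. Overlap was judged over the whole span of a peak on the genome, any intron within it included. The shared bases therefore need not be exon bases. Spans reached 232442 bp in RAD51B and 131358 bp in RMI2, both in the shALKBH5 list. All member peaks lay in a UTR, another exon or an intron by the authors' annotation, as did 80.2% and 81.3% of all peaks. Over these regions, 60.8% (52.0 to 68.9%) of the member peaks of the shALKBH5 list and 52.4% (44.3 to 60.5%) of the shCtrl list lay in the 3'UTR, against 56.7% and 56.8% of all peaks in them, and both member intervals hold the share of all peaks. A 3'UTR in this annotation need not be the end of the gene, since 23 of the 76 and 29 of the 75 3'UTR peaks of the members lay more than 10 kb from the 3' end of the gene. The RAD51C peak above, near the first base of the gene, is annotated as 3'UTR.

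Where a member peak overlapped exactly 1 peak of the other list and the reverse, the folds could be set side by side. There were 52 such pairs in 30 members. The fold was higher in the shALKBH5 list in 26 pairs and lower in 26, with a median log2 difference of -0.00, against 45.8% higher and a median of -0.04 for the 22939 pairs of all genes. Of the 27 pairs in the 3'UTR, 16 (59.3%) were higher in the shALKBH5 list, against 45.4% of the 11402 pairs of all genes there. A peak that overlaps several of the other list enters no such pair, and RAD50 and RAD54B had none. A pair can join peaks of unlike span, as in BLM, with 10765 bp in the shALKBH5 list and 570 bp in the shCtrl list. The ends of the range were BARD1 in its 3'UTR, at 13.5 in the shALKBH5 and 2.52 in the shCtrl list, and RAD51C, at 7.20 and 35.7. BARD1 was at means of only 0.0752 FPKM in the shALKBH5 and 0.428 FPKM in the shCtrl input libraries, and the error of its folds is not known.

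The 10 tested members with a log2 fold change in expression no higher than that of USP1, -1.11, had paired folds that went both ways, apart from FANCD2 and UBE2T, which had no pair. RAD51AP1 had 6.12 in the shALKBH5 list and 2.98 in the shCtrl list, RAD54L had 2.85 and 3.02, RMI2 had 8.92 and 8.54, FANCI had 2.05 and 2.03, and FANCG had 1.99 and 1.60. C19orf57 had 7.35 and 4.85 in its 3'UTR but 4.46 and 6.60 in its 5'UTR, and EXO1 had 1.81 and 1.66 in its 5'UTR but 2.45 and 3.68 in an exonic peak. USP1 had 9.19 and 2.65 in its 3'UTR but 7.16 and 11.6 in an exonic and 2.23 and 3.25 in a 5'UTR peak. Of the members below the filter, BLM had 20.2 and 7.43 in an exonic and 6.74 and 2.55 in a 3'UTR peak, and BARD1 had the pair given above. BRCA2 had 26.9 and 11.2 in its 3'UTR and 7.35 and 3.83 in an exonic peak, but 9.8 and 14 in another exonic peak. ATR had 5.51 and 7.02 in its 3'UTR and 5.26 and 6.49 in an exonic peak. The rest of the members below the filter had no pair. The input of these members was low, and the error of their folds is not known.

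**Figure D5:**
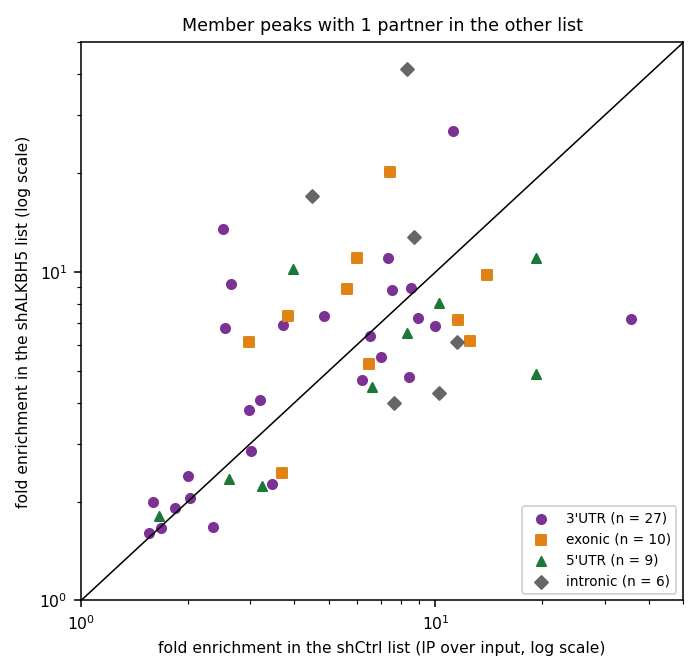
Fold enrichment of the 52 paired member peaks, antibody over input, in the shCtrl list (horizontal) and the shALKBH5 list (vertical), both on log axes. Symbols give the authors' region, the line marks equal folds, and 26 points lie on each side of it.

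The authors' table of differential peaks listed 18 peaks of 12 members. All 12 were tested for expression, so that 35.3% of the 34 tested members had a listed peak, where 32.7% of all tested genes did. Only the presence and place of these peaks were used here. ATRIP, RAD54B and FANCC had 3 listed peaks each, a pair of which overlapped in ATRIP and in RAD54B, so that the 18 listed peaks were 16 sites. BRCA1, C19orf57, EME1, EXO1, FANCE, FANCL, RAD51C, RAD51D and USP1 had 1 each. Of the 18 peaks, 12 lay in the 3'UTR, 5 in other exons and 1 in the 5'UTR. The listed BRCA1 peak, chr17:43093266-43094792, lay outside the span shared with AC060780. Of the 12 members, 10 were called lower in expression, where 23 of the 34 tested members (67.6%) and 28.6% of all tested genes with a listed peak were, and RAD51C and ATRIP were not called. Of the 10, FANCL, RAD51D and RAD54B are among those whose call was lost in some alternatives.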

How the data were processed

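A375 cells with shCtrl or shALKBH5 gave 3 input and 3 IP libraries each, grouped by their labels. The authors deposited FPKM per input library. The aligner, counter and annotation are not given in the sources used here. The labels name a mouse build, but all 43 members lie where RefSeq places them on human GRCh38.p14, so positions are read as human. The authors also deposited, per group, a peak list with fold enrichment, the ratio of IP over input, and an FDR on a log scale, a score used only to choose strict peaks. The deposited table of differential peaks gave positions in base pairs, and the authors' own fold changes and p-values, in it and in the expression table, were not used. Peak starts were changed to count from 1.

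limma 3.58.1 (lmFit and eBayes with a trend, R 4.3.3) was run on log2(FPKM + 0.1), two-sided, on genes whose mean over the 6 input libraries reached 0.5 FPKM, after it was tested on simulated data. Tables and figures were made with pandas 2.3.3, numpy 2.4.6, matplotlib 3.10.9 and scipy 1.17.1 in Python 3.11.15. Numbers of reads were not derived from the FPKM values. Same-numbered libraries did not deviate together (r = 0.02, -0.05 and 0.06), so numbers were not taken as pairs. No 2 libraries shared more than 0.123% of values. The alternatives tried were a pseudocount of 1 or of 0.01, the filter removed or raised to 1 FPKM, median ratio rescaling, a replicate block, eBayes without a trend, each library left out, strict peaks (fold of at least 2, FDR of at most 0.01) and a reciprocal overlap of 50%. Leaving out both libraries numbered 2 and merging overlapping peaks of one gene within a list were added after the data were seen.

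The members, their roles, the gene lists and the rule for named genes were chosen with earlier results of these data known. By the rule every member is accounted for, and of other lists the genes with the lowest and highest log2 fold change are named, with ALKBH5, MKI67 and PCNA, except for items that are not reported here. CHEK2P2, the same-strand and opposite-strand genes and the melanocyte markers MITF, S100A1, PMEL, TYR, DCT and TYRP1 were chosen after their values were seen. Of tested markers, 1 keratinocyte marker was lower and 1 higher, and 1 of 2 fibroblast markers was higher. Sequence under the peaks was not analysed here.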

Additional observations from a re-analysis of the deposited data

How the results depend on the processing

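The number of members called lower was 23 of 34 and ran from 17 to 25 over 14 alternatives. These did not all test the same members. The 17 were of 25 members tested with the filter at 1 FPKM, where 28% of all tested genes were lower. The 25 were of 34 after median ratio rescaling, where 30.0% of all tested genes were lower. Without the filter they were of 43, where 12.2% were. No member's call changed direction. Of the 23 members called lower, 19 kept the call in every alternative that tested them, and FANCL, RAD51D, RAD54B and XRCC2 did not. RBBP8, TOPBP1 and NBN gained a call in at least 1. The number called higher, 2, became 1 after rescaling by the median ratio, and 1 to 2 with each library left out. The median log2 fold change of the members, -0.76, was -0.64 without the filter, -0.44 with a pseudocount of 1 and -0.66 without both libraries numbered 2, and ran from -0.80 to -0.63 with each library left out, the last without shALKBH5 replicate 2. A pseudocount shrinks the fold change of low genes by construction. The same-numbered libraries were not paired, and with a replicate block 21 members were lower and 1 higher, where 24.1% and 31.9% of all tested genes were. Among strict peaks, 89.4% of the member peaks of the shALKBH5 list and 83.3% of the shCtrl list overlapped the other list, against 82.1% and 83.6% of all strict peaks. With a reciprocal overlap of 50% the shares were 48% and 42% of the member peaks as listed, against 51.6% and 53.7% of all peaks, and with overlapping peaks of one list merged they were 79.7% and 72.9%. The number of libraries and the unknown depth limit what low members such as BRCA2 can show.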
